A study of Mus musculus with 12 samples.

Results

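Whole mouse embryos at E10.5, in mid-organogenesis, were compared with morulae, the compacting cleavage stage that precedes the blastocyst. The members of the comparison are the 3 arrays that the sample titles place at E10.5 and the 2 that they place at the morula stage, which are 5 of the 12 arrays of the series. Each E10.5 array holds RNA of 1 whole embryo dissected from its mother and rinsed in PBS, and each morula array holds a pool whose number of embryos the labels do not state. All embryos came from superovulated females mated naturally, with the day of the plug counted as E0.5, and morulae were taken 48 h after that day; whether they had grown in the mother or in culture is not stated. No strain, mutation or treatment is named in the labels, and every array was labelled from 2 ng of total RNA. The other 7 arrays (2 of pronuclear embryos, 2 of 2-cell embryos and 3 of E16.5 embryos) entered only the estimate of spread and the stage profiles given near the end.

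A morula is a ball of cells that still carry transcripts of the oocyte and of the first wave of embryonic transcription, run the pluripotency network, and begin to build the polarised outer epithelium that becomes trophectoderm. An E10.5 embryo has a segmented body axis, a patterned neural tube, limb buds, a beating heart and circulating primitive red cells. In between, Hox genes and other homeobox factors are switched on along the axis, secreted signals of the Wnt, Fgf, BMP, Hedgehog, Notch and retinoic acid families pattern the tissues, and mesenchyme with its own matrix is laid down.

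Signals are the authors' gene-level log2 values. How a difference in these units scales with the amount of RNA was not measured here. Every difference below is E10.5 minus morula in these units with the standard error (SE) of the fit. Genes were called with limma at a Benjamini-Hochberg adjusted p below 0.05 over 21156 genes. "Rose" and "fell" are used of E10.5 relative to the morula and only of genes past that threshold. In bulk RNA of whole embryos, a larger share of a tissue and more RNA per cell cannot be told apart. Whether embryos or pools came from separate mothers is not given, so the p-values speak only for the spread among the arrays at hand.

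Arrays of 1 stage correlated across genes at 0.991 to 0.992 at E10.5 and at 0.979 between the morulae, and at 0.782 to 0.790 between the stages; genes are not independent replicates. The array names carry 1 date for E10.5 and E16.5 and another for the 3 early stages, so stage, that date and the use of pools or single embryos cannot be told apart. Olfactory and vomeronasal receptor genes (1401 measured) gave a measure of background: 95% of them lay below 5.38 at E10.5 and below 6.10 in the morula, called the receptor range here. For a gene whose lower stage lies within that range the fitted difference rests on a signal that cannot be told from background, and for the leading genes the difference against the top of the range is given as well. A change between 2 values within it can follow the background, which was itself lower at E10.5 (receptor median difference -0.42, with 6 receptors higher and 283 lower). The labels were checked against defining genes: 24 of 34 Hox genes, Sox2, Pax6, Meox1, Prrx1 and Hbb-y were higher at E10.5. There 10 of the Hox genes and Nkx2-5, also chosen for this check, lay within the receptor range. Pou5f1, Cdx2, Krt8, Cldn4, Fbp2 and Dppa5a were higher in the morula.

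The 2 stages differed in 51.9% of all genes. At E10.5, 5335 genes were higher (25.2%) and 5638 lower (26.6%), with a median difference over all genes of -0.16. The split depends on the scale: the higher genes made up 48.6% of the calls, against 67.5% with arrays centred on the receptor median and 38.7% with arrays centred on the upper quartile, which put the median of all genes at 0.32 and -0.43. Differences of over 5 log2 units were found for 351 rises and 335 falls. Of the rises, 2044 started from a morula mean within the receptor range. Arrays of the 2 stages did not overlap for 69.5% of genes, which is the share to hold beside any statement below that groups do not overlap.

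**Figure D1:**
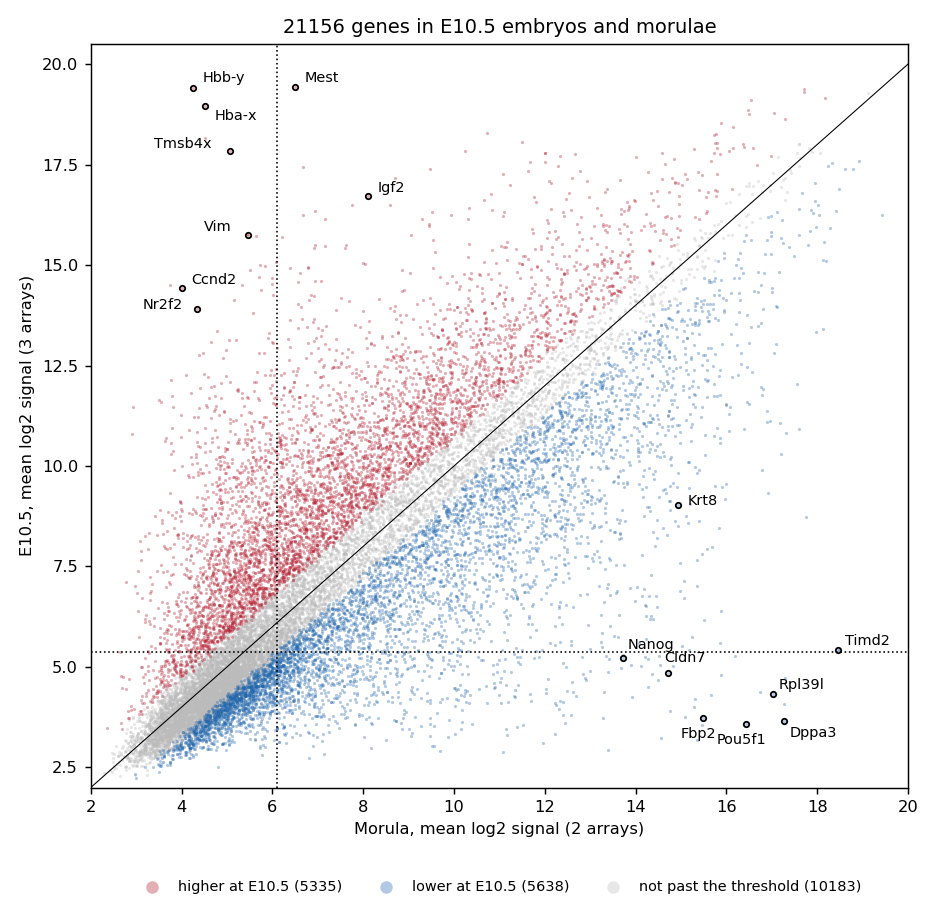
Mean log2 signal of 21156 genes at E10.5 (vertical axis, 3 arrays) against the morula (horizontal axis, 2 arrays), coloured by call, with the line of equality and dotted lines at the top of the receptor range (5.38 at E10.5, 6.10 in the morula). The globins Hbb-y and Hba-x, Mest and Tmsb4x lie at the upper left, and Dppa3, Pou5f1, Timd2 and Rpl39l at the lower right.

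The largest rises were those of primitive red cells. Hbb-y, the embryonic beta-like globin of yolk-sac-derived erythrocytes (chr7:103851745-103853240 on mm10), had signals of 19.36, 19.46 and 19.41 in the 3 E10.5 embryos, against 4.14 and 4.38 in the 2 morulae. Hba-x, the embryonic zeta-like alpha globin (chr11:32276400-32278116), had 18.92, 18.95 and 19.03 in E10.5 embryos, against 4.58 and 4.48 in morulae. Both genes were within the receptor range in the morula and among the brightest signals of the array at E10.5. They rose by 15.15 ± 0.30 and by 14.44 ± 0.30 (adjusted p at most 5.54e-14), or by at least 13.31 and 12.87 when the morula is set at the top of the receptor range. Hbb-bh1, the other early beta-like globin, rose by 13.65 ± 0.31 (adjusted p = 1.15e-13); the embryonic beta-like genes are close copies, and how far their probes share signal was not tested.

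At the other end stood Dppa3, Fbxo15, Dppa5a, Timd2 and Pou5f1. All but Timd2, a 2-cell activation gene described below, are genes of the pluripotent or germ cell state. Dppa3, which protects the maternal genome's methylation after fertilisation (chr6:122626410-122630272), had 3.55, 3.52 and 3.91 in E10.5 embryos, against 17.31 and 17.24 in morulae. Pou5f1, the homeodomain factor OCT4 at the centre of the pluripotency network (chr17:35506018-35510777), had 3.23, 3.35 and 4.19 in E10.5 embryos, against 16.40 and 16.45 in morulae. All E10.5 signals of both genes lay within the receptor range. Dppa3 fell by 13.62 ± 0.28 and Pou5f1 fell by 12.84 ± 0.30 (adjusted p at most 1.15e-13), or by at least 11.90 and 11.05 against the top of that range.

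Promoter stretches are shown for 2 globin genes that rose and for 2 genes of the pluripotency network that fell, Pou5f1 and Nanog (Nanog is described below and is not among the 15 largest falls), since both groups recur in the results. Each stretch holds 180 bases upstream of a RefSeq start (build GRCm38.p6), read 5′ to 3′ on the gene's strand, with exact matches to short motifs in capitals. Each motif was searched on both strands, but only in the stretches of its own pair of genes. Motifs of the other pair are left unmarked even where their letters occur, as CACCC and GATA do in the Pou5f1 stretch. For the globins these were the erythroid box CACCC, the box CCAAT common to many promoters, the core GATA of the sites that GATA factors bind, and the TATA box in the form TATAAA. For the pluripotency genes they were TTTGCAT, a part of the octamer motif that OCT4 binds, and the GC box in the form GGGCGG. The Hbb-y stretch is chr7:103853208-103853387 (minus strand), the Hba-x stretch chr11:32276420-32276599 (plus), the Pou5f1 stretch chr17:35505852-35506031 (plus) and the Nanog stretch chr6:122707309-122707488 (plus).
Hbb-y: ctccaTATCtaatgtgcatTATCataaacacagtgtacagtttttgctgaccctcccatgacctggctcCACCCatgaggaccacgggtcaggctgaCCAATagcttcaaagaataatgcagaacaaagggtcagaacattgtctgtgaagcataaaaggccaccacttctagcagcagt
Hba-x: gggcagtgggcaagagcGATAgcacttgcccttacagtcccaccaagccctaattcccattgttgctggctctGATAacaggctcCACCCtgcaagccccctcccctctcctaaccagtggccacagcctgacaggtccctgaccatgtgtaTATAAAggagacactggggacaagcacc
Pou5f1: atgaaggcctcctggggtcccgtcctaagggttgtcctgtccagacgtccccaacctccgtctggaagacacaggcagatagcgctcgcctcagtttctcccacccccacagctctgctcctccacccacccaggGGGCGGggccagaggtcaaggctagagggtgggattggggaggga
Nanog: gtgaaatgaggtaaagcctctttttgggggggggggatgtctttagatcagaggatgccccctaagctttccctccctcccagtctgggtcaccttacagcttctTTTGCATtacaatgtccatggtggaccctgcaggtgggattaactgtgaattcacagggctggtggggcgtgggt
Hbb-y held CACCC starting at -111 and CCAAT at -83, and GATA on the other strand at -175 and -161. Hba-x held GATA at -163 and -107, CACCC at -95 and TATAAA at -28. Pou5f1 held GGGCGG at -45, and Nanog held TTTGCAT at -75. Of 32851 RefSeq promoter windows cut to these 180 bases, 42.4% held CACCC, 41.7% GATA, 27.5% CCAAT, 8.94% TATAAA, 30.2% GGGCGG and 2.90% TTTGCAT. A match describes these letters only.

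The adult alpha globin genes Hba-a1 and Hba-a2 share 2 probe sets that carry both symbols and were therefore not among the genes ranked. These probe sets were higher at E10.5 by 12.94 ± 0.28 and 12.84 ± 0.26 (limma, adjusted p at most 8.05e-14), close to the difference of Mest. Beyond the globins, the 15 largest rises among genes with a probe set of 1 symbol held imprinted growth genes, cytoskeletal genes and patterning genes. Mest, an imprinted gene expressed from the paternal allele in mesoderm, had 19.44, 19.48 and 19.37 in E10.5 embryos, against 5.45 and 7.56 in morulae, and rose by 12.93 ± 0.42. Tmsb4x, which encodes the actin-sequestering peptide thymosin beta 4, had 17.93, 17.63 and 17.94 in E10.5 embryos, against 4.39 and 5.72 in morulae, and rose by 12.77 ± 0.36. Neither gene's groups overlapped, and the morulae differed from each other by more than the E10.5 embryos did for both. The same set held Rmrp, the RNA of RNase MRP (10.77 ± 0.43), Peg3, an imprinted zinc finger gene (10.75 ± 0.32), the cyclin gene Ccnd2 (10.42 ± 0.35), Grb10, an imprinted inhibitor of growth factor receptors (10.34 ± 0.41), and Vim, the mesenchymal intermediate filament vimentin (10.30 ± 0.42). Crabp1, a retinoic acid binding protein (10.08 ± 0.26), Nr2f2, an orphan nuclear receptor of mesenchyme and veins (9.56 ± 0.33), Map1b, a microtubule protein of growing axons (9.56 ± 0.26), Nt5dc2 (9.47 ± 0.29) and Igdcc3, an immunoglobulin superfamily gene (9.41 ± 0.27), completed it (adjusted p at most 2.65e-11).

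Transcription factors of organogenesis rose widely. Of 300 factors on 8 lists, 167 rose (55.7%), 23 fell (7.67%) and 110 did not pass, with a median difference of 1.10, against 25.2% and 26.6% of all genes and a median of -0.16. Of the 167, 151 stood above the receptor range at E10.5 (24.4% of all genes rose and did so). The morula side of these lists was often dark: of 34 Hox genes 31 had a morula mean within the receptor range.

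Hox genes encode the homeodomain factors that give axial levels their identity. Of them 24 of 34 measured members rose, 1 fell and 9 did not pass (median difference 1.76). Hoxd11, of the posterior axis and limb, had 8.31, 8.87 and 9.20 in E10.5 embryos, against 3.82 and 3.77 in morulae, and rose by 5.00 ± 0.38. Hoxb9, of the thoracic axis, had 7.69, 7.92 and 8.04 in E10.5 embryos, against 3.21 and 3.03 in morulae, and rose by 4.77 ± 0.27. Both were within the receptor range in each morula pool and above it in each embryo. Hoxa2, which patterns the hindbrain and pharyngeal arches, rose by 4.66 ± 0.28, Hoxa5, of the cervical axis, rose by 4.36 ± 0.29, and Hoxd10 rose by 4.25 ± 0.30 (adjusted p at most 2.85e-08). Split by position in the cluster, a split made after the values were seen, 19 of 22 genes of paralog groups 1 to 9 rose and 0 fell, and 5 of 12 genes of groups 10 to 13, which act in the tail, distal limb and genital region, rose and 1 fell. The median difference was 1.85 for groups 1 to 9 and 0.66 for groups 10 to 13; the difference between them was not tested. Hoxb13 was the member that fell (-1.07 ± 0.28, adjusted p = 0.00503), with both stages within the receptor range and no call without morula replicate 1 (-0.63), and Hoxc9 differed by 1.02 ± 0.46 without passing (adjusted p = 0.0775).

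The TALE-class cofactors that bind DNA together with Hox proteins rose as well. Of the list 7 of 9 measured members rose, 1 fell and 1 did not pass (median difference 3.14). Meis2 had 14.32, 14.18 and 14.29 in E10.5 embryos, against 5.86 and 6.15 in morulae, and rose by 8.26 ± 0.25. Meis1 had 14.11, 13.83 and 13.92 in E10.5 embryos, against 7.08 and 6.19 in morulae, and rose by 7.32 ± 0.30 (adjusted p at most 3.35e-11). No E10.5 signal of either gene came near a morula signal. Pknox1, another TALE factor, fell by 1.44 ± 0.35 (adjusted p = 0.00296).

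Among neural patterning factors 42 of 66 measured members rose, 2 fell and 22 did not pass (median difference 1.51). Sox2, a factor of neural progenitors that also belongs to the pluripotency network, had 11.51, 11.79 and 11.91 in E10.5 embryos, against 8.05 and 8.07 in morulae. It rose by 3.68 ± 0.41 (adjusted p = 1.69e-06), and the morula signals were already above the receptor range. Zic1, of the dorsal neural tube and somites, had 13.29, 13.55 and 13.08 in E10.5 embryos, against 6.06 and 5.78 in morulae, and rose by 7.38 ± 0.27. Sox11, of differentiating neurons and mesenchyme, rose by 6.08 ± 0.26, the caudal and dorsal factor Irx3 rose by 4.89 ± 0.36, Nr2f1, a forebrain area factor, rose by 5.33 ± 0.28, the forebrain and midbrain factor Otx2 rose by 3.38 ± 0.35, and Pax6, of eye and neural tube, rose by 2.39 ± 0.30 (adjusted p at most 7.42e-06). Hesx1, a repressor of the anterior neural plate and pituitary, fell by 1.77 ± 0.30 (adjusted p = 0.000122).

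Factors of neuronal birth rose in part. On that list 21 of 45 measured members rose, 3 fell and 21 did not pass (median difference 0.61). Ebf1, a factor of differentiating neurons, had 12.36, 12.21 and 12.62 in E10.5 embryos, against 6.44 and 5.49 in morulae, and rose by 6.43 ± 0.35. Its relative Ebf3 rose by 5.74 ± 0.30, Tfap2b, of neural crest and sympathetic neurons, rose by 5.58 ± 0.28 and Isl1, of motor neurons and second heart field, rose by 3.49 ± 0.39 (adjusted p at most 1.94e-06). Each of these genes had all E10.5 arrays above all morula arrays. The sensory factor Pou4f1 rose by 1.32 ± 0.34 (adjusted p = 0.00388). Eomes, which acts in trophoblast and mesendoderm as well as in cortical progenitors, fell by 4.01 ± 0.39 (adjusted p = 3.34e-07).

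Mesoderm, neural crest and limb factors made up the longest list, of which 52 of 84 measured members rose, 4 fell and 28 did not pass (median difference 1.48). Prrx1, a homeobox factor of limb and craniofacial mesenchyme, had 12.70, 11.65 and 12.47 in E10.5 embryos, against 4.30 and 3.89 in morulae, and rose by 8.18 ± 0.40. Meox1, of the somite, had 8.10, 8.36 and 7.41 in E10.5 embryos, against 3.88 and 3.39 in morulae, and rose by 4.32 ± 0.35. Both were within the receptor range in the morula and clear of it at E10.5. Sox9, of cartilage progenitors and crest, rose by 5.51 ± 0.30, Foxc1 rose by 4.46 ± 0.37, Osr1, of intermediate mesoderm, rose by 3.94 ± 0.47, Pax3, of dermomyotome and neural crest, rose by 3.68 ± 0.28 and Twist1 rose by 3.36 ± 0.24 (adjusted p at most 4.02e-06). Plagl1, an imprinted zinc finger gene of the list, rose by 8.09 ± 0.30 (adjusted p = 1.11e-11). The somite factor Tcf15 (difference -0.49 ± 0.29, adjusted p = 0.168) and the limb and crest factor Msx1 (0.46 ± 0.37, 0.311) did not pass. Tbx3, a T-box factor of limb and heart that is also part of the naive pluripotency network, had 7.58, 7.34 and 7.35 in E10.5 embryos, against 11.58 and 11.11 in morulae, and fell by 3.92 ± 0.30 (adjusted p = 3.04e-08).

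Heart and muscle factors were mixed. Of the list 10 of 26 measured members rose, 5 fell and 11 did not pass (median difference 0.62). Mef2c rose by 2.99 ± 0.41, Tbx5, of left ventricle and forelimb, rose by 1.81 ± 0.45, Tbx1, of pharyngeal mesoderm, rose by 3.33 ± 0.36, the myogenic factor Myf5 rose by 2.25 ± 0.25 and the Notch effector Hey1 rose by 3.93 ± 0.27 (adjusted p at most 0.00332). Nkx2-5, the cardiac homeobox factor, had 3.97, 3.34 and 3.76 in E10.5 embryos, against 3.65 and 3.64 in morulae, all within the receptor range, and did not pass (adjusted p = 0.896). Hand1 (0.63 ± 0.31), Hand2 (0.61 ± 0.46) and Gata4 (0.60 ± 0.34) did not pass either (adjusted p at least 0.106). Tbx20, another cardiac T-box gene, had 9.34, 9.03 and 9.53 in E10.5 embryos, against 12.28 and 12.39 in morulae, and fell by 3.03 ± 0.28 (adjusted p = 1.94e-07). Of terminal heart, muscle and vessel markers, by contrast, 16 of 21 rose and 1 fell (median 3.18). The natriuretic peptide gene Nppa, made by the embryonic heart, had 9.84, 10.36 and 10.95 in E10.5 embryos, against 3.65 and 3.97 in morulae. Its relative Nppb was the member that fell. Nppb had 5.52, 5.58 and 5.81 in E10.5 embryos, against 8.82 and 8.77 in morulae, a difference of -3.16 ± 0.33 (limma, adjusted p = 8.56e-07).

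Of blood and endothelial factors 13 of 27 measured members rose, 3 fell and 11 did not pass (median difference 0.53). Mecom rose by 6.64 ± 0.46, Ets2 rose by 5.32 ± 0.40 and the endothelial factor Erg rose by 3.05 ± 0.34 (adjusted p at most 1.73e-06). Runx1, required for definitive blood, had 5.89, 5.57 and 6.35 in E10.5 embryos, against 8.95 and 8.14 in morulae, and fell by 2.61 ± 0.30 (adjusted p = 2.89e-06). The erythroid factors Gata1 (-0.69 ± 0.32), Klf1 (0.53 ± 0.26) and Tal1 (0.47 ± 0.28) did not pass (adjusted p at least 0.0858). Of gut, liver, kidney and lung factors 10 of 31 rose and 5 fell (median 0.22), a median whose sign depends on the scale (0.70 with arrays centred on receptors, -0.05 on the upper quartile).

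**Figure D2:**
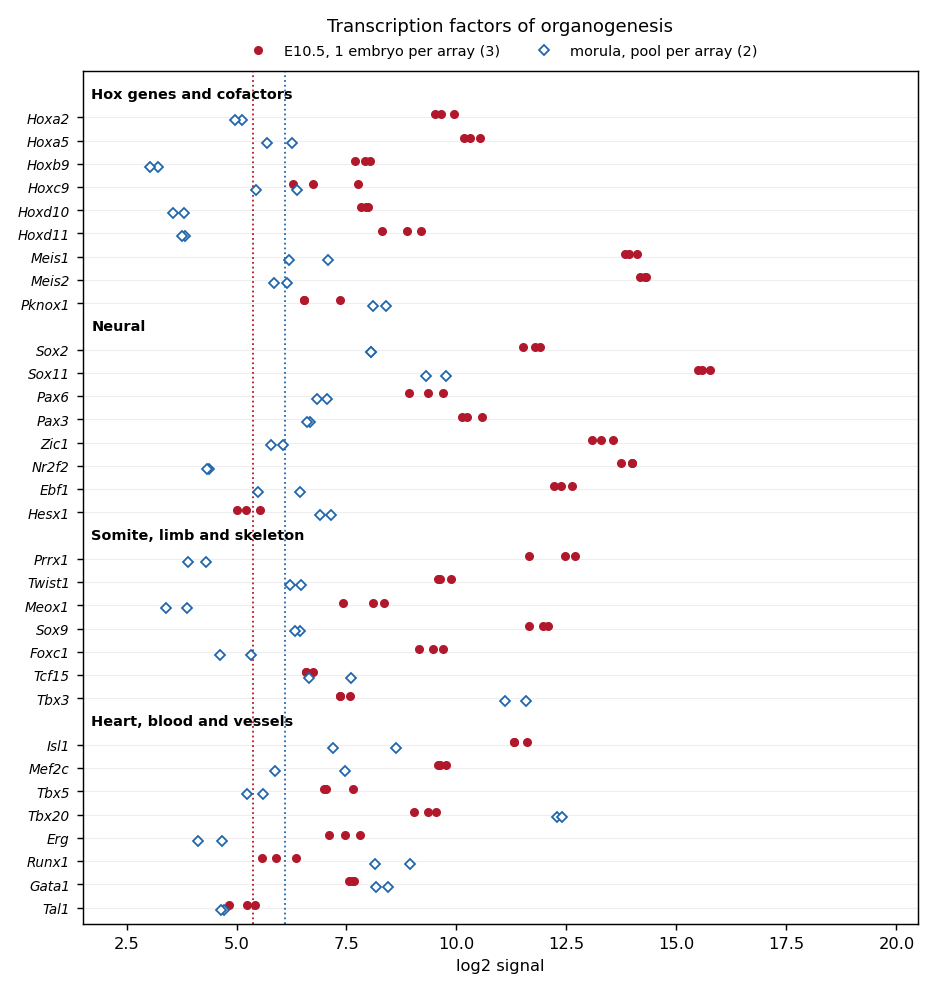
Log2 signal (horizontal axis) of named transcription factors in each E10.5 embryo (filled circles, 3) and each morula pool (open diamonds, 2), with dotted lines at the top of the receptor range of each stage. Most factors are dark in the morula and bright at E10.5, such as Meis2 and Prrx1, while Pknox1, Hesx1, Tbx3, Tbx20 and Runx1 lie the other way and Hoxc9, Tcf15 and Tal1 lie close together.

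Signalling genes rose widely too. Of 353 genes on 14 lists 203 rose (57.5%), 29 fell (8.22%) and 121 did not pass, with a median difference of 1.15. In the Wnt pathway, of ligands 7 of 19 rose and 0 fell (median 0.47), of receptors and co-receptors 16 of 20 rose and 1 fell (median 2.25), and of inhibitors, effectors and targets 22 of 28 rose and 1 fell (median 1.44); differences between these lists were not tested.

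Among Wnt ligands, Wnt5a, which drives outgrowth of limb and tail, had 7.26, 7.64 and 8.62 in E10.5 embryos, against 6.64 and 6.44 in morulae, and rose by 1.30 ± 0.35 (adjusted p = 0.00576). Wnt2b rose by 1.72 ± 0.31 and Wnt4 rose by 1.39 ± 0.32. The Frizzled receptor gene Fzd2 had 12.68, 12.71 and 12.64 in E10.5 embryos, against 5.21 and 4.61 in morulae, and rose by 7.77 ± 0.41. Fzd7 rose by 5.79 ± 0.26, Lgr4, a receptor of R-spondins, rose by 5.62 ± 0.30, and the planar polarity receptors Ptk7 and Ror2 rose by 5.40 ± 0.55 and 5.17 ± 0.35 (adjusted p at most 7.16e-07). Lrp5, a co-receptor, was the one that fell (-0.68 ± 0.27, adjusted p = 0.0485), and its call was lost when any single array was left out. The secreted antagonists Sfrp2, Frzb and Sfrp1 rose by 6.99 ± 0.36, 5.44 ± 0.43 and 4.62 ± 0.33. Rspo3, a secreted enhancer, rose by 6.05 ± 0.40, the nuclear effector Lef1 rose by 3.86 ± 0.29, and Axin2, a feedback target of the pathway, rose by 3.53 ± 0.30 (adjusted p at most 7.56e-08). Sfrp4 fell by 3.56 ± 0.28 (adjusted p = 4.29e-08), so antagonists of 1 family moved both ways.

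In the reported fit Fgf ligands were the signalling list with more falls than rises: 2 of 21 measured members rose, 6 fell and 13 did not pass. Of the 6 falls, 2 started from above the receptor range. With arrays centred on receptors the order turned, and 8 rose and 2 fell, while on the upper quartile 2 rose and 6 fell. The sign of the median difference (0.04) also depends on the scale (0.52 with arrays centred on receptors, -0.23 on the upper quartile). Fgf15, of neural tube and pharyngeal arches, rose by 2.24 ± 0.41 (adjusted p = 0.000268), and Fgf9, named after its values were seen, rose by 1.59 ± 0.29 (adjusted p = 0.00027). Fgf4, the ligand by which the inner cells of the early embryo signal, had 4.75, 3.91 and 4.43 in E10.5 embryos, against 6.35 and 5.34 in morulae, and fell by 1.49 ± 0.40 (adjusted p = 0.00605) with both stage means within the receptor range, and no call without morula replicate 1 (-0.98). Fgf8, of limb ridge and brain organisers, differed by 0.72 ± 0.31 within that range and did not pass (adjusted p = 0.0652). Of Fgf receptors, feedback genes and targets 7 of 18 rose and 4 fell (median 0.52). The MAPK phosphatase gene Dusp6 had 11.70, 12.08 and 11.60 in E10.5 embryos, against 8.46 and 8.77 in morulae, and rose by 3.18 ± 0.30. Spred1, a feedback inhibitor, rose by 5.54 ± 0.26 and the target Etv1 rose by 2.77 ± 0.39 (adjusted p at most 1.97e-05). Its relative Etv5 fell by 1.08 ± 0.27 (adjusted p = 0.00345), Etv4 differed by 0.40 ± 0.38 and did not pass (0.4), and Klb, the co-receptor of endocrine Fgfs, fell by 4.07 ± 0.34 (6.79e-08).

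Of TGF-beta and BMP ligands 10 of 33 measured members rose, 5 fell and 18 did not pass (median difference -0.05), a median whose sign depends on the scale (0.43 with arrays centred on receptors, -0.32 on the upper quartile). The 30.3% that rose lie near the 25.2% of all genes. Bmp4, of ventral mesoderm, limb and neural tube roof, had 10.23, 10.71 and 9.96 in E10.5 embryos, against 4.50 and 4.15 in morulae, and rose by 5.97 ± 0.42. Bmp5 rose by 3.99 ± 0.40, Bmp7 rose by 3.54 ± 0.48 and Tgfb2 rose by 3.34 ± 0.24 (adjusted p at most 1.43e-05). The oocyte ligands fell: Bmp15 had 4.92, 5.33 and 4.84 in E10.5 embryos, against 7.74 and 7.70 in morulae, and fell by 2.69 ± 0.28. Gdf9 had 6.13, 5.53 and 5.87 in E10.5 embryos, against 6.90 and 9.57 in morulae, which lay far apart, and fell by 2.39 ± 0.54 (adjusted p at most 0.00148). Of receptors, inhibitors and effectors 21 of 35 rose and 2 fell (median 1.07). The BMP target genes Id1, Id2 and Id3 rose by 5.55 ± 0.26, 4.35 ± 0.31 and 2.57 ± 0.46, Smad5, a transducer of BMP, rose by 5.27 ± 0.30, and the receptor Tgfbr1 rose by 4.83 ± 0.32 (adjusted p at most 0.000207). Tdgf1, the Nodal co-receptor Cripto of early embryo cells, had 3.50, 3.85 and 3.41 in E10.5 embryos, against 9.41 and 9.53 in morulae, and fell by 5.89 ± 0.28 (adjusted p = 1.67e-10).

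No Hedgehog gene fell. Of the pathway 13 of 17 measured members rose, 0 fell and 4 did not pass (median difference 2.90). Gli3, its main repressor in limb and neural tube, had 12.92, 12.69 and 12.82 in E10.5 embryos, against 4.55 and 4.42 in morulae, and rose by 8.33 ± 0.28. The co-receptor Cdon rose by 5.52 ± 0.31, the receptor and target Ptch1 rose by 4.50 ± 0.30, the co-receptor Gas1 rose by 3.93 ± 0.36, and Gli1, a direct target, rose by 2.90 ± 0.40. The ligand gene Shh, named after its values were seen, rose by 1.91 ± 0.29 (adjusted p at most 3.91e-05). The rule favours the largest changes in a list's main direction, so that all the named genes rose is not a separate result.

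In the Notch pathway 19 of 30 measured members rose, 2 fell and 9 did not pass (median difference 1.46). Among the genes named here, Notch1 lost its call without morula replicate 1 (0.85). Dll1, the ligand of neurogenesis and somite segmentation, had 9.67, 10.20 and 10.11 in E10.5 embryos, against 4.47 and 5.22 in morulae, and rose by 5.15 ± 0.39. Lfng, the glycosyltransferase of the segmentation clock, rose by 4.45 ± 0.34, the effector Hes5 rose by 2.42 ± 0.29, the receptor Notch1 rose by 1.09 ± 0.28, and the imprinted ligand-like gene Dlk1 rose by 8.98 ± 0.28 (adjusted p at most 0.00431). Hes1 differed by 0.40 ± 0.26 and did not pass (adjusted p = 0.22). Rfng, a relative of Lfng, fell by 1.47 ± 0.30 (adjusted p = 0.00073).

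Retinoic acid handling rose at each step but 1 of those named. Of the list 13 of 19 measured members rose, 2 fell and 4 did not pass (median difference 1.30). The binding protein gene Crabp1 had 15.68, 15.77 and 15.72 in E10.5 embryos, against 5.58 and 5.71 in morulae. Its relative Crabp2 had 15.38, 15.68 and 15.47 in E10.5 embryos, against 6.57 and 7.30 in morulae. Both were far higher in every embryo than in either pool, and they rose by 10.08 ± 0.26 and 8.57 ± 0.33. Aldh1a2, the main retinoic acid synthase of the embryo, rose by 3.05 ± 0.38 (adjusted p at most 5.25e-06). Rdh10, which makes retinal from retinol, had 7.67, 6.85 and 6.28 in E10.5 embryos, against 10.46 and 10.94 in morulae, and fell by 3.77 ± 0.34 (adjusted p = 1.54e-07).

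The IGF list had a median difference of 3.88, with 13 of 19 genes higher and 1 lower. Igf2, the fetal growth factor, had 16.62, 16.81 and 16.75 in E10.5 embryos, against 8.04 and 8.18 in morulae, and rose by 8.62 ± 0.27. Igfbp5 rose by 7.01 ± 0.46, Igf1 rose by 5.91 ± 0.26 and Igfbp2 rose by 4.84 ± 0.50 (adjusted p at most 8.14e-07). Ins1 fell by 1.11 ± 0.30 within the receptor range (adjusted p = 0.00515) and lost its call without morula replicate 1 (-0.68).

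Receptor tyrosine kinases and guidance systems moved in the same direction. Of the kinases of vessels and mesenchyme 18 of 28 rose and 3 fell (median 1.43), of Eph receptors and ephrins 13 of 22 rose and 2 fell (median 1.17), and of semaphorins, netrins, Slits and their receptors 30 of 45 rose and 0 fell (median 1.33). Kdr, the VEGF receptor of endothelium, had 10.86, 11.21 and 10.75 in E10.5 embryos, against 5.58 and 5.51 in morulae, and rose by 5.40 ± 0.38. Pdgfrb, of pericytes and mesenchyme, rose by 5.25 ± 0.34, its ligand-family gene Pdgfc rose by 7.06 ± 0.29, and Kitl, the ligand of KIT, rose by 4.49 ± 0.39. Epha7 had 13.88, 13.72 and 13.82 in E10.5 embryos, against 5.92 and 5.24 in morulae, and rose by 8.22 ± 0.30. Epha3 rose by 6.25 ± 0.40, Epha4 rose by 3.78 ± 0.35 and the ligand Efna5 rose by 5.95 ± 0.26. Dcc, the netrin receptor of commissural axons, rose by 6.02 ± 0.40, Robo1, the Slit receptor, rose by 4.53 ± 0.35, Plxna2 rose by 4.94 ± 0.30, and the ligands Ntn1 and Slit2 rose by 2.81 ± 0.28 and 2.27 ± 0.37 (adjusted p over these genes at most 7.67e-05). Against them, Erbb3 fell by 3.40 ± 0.31 (adjusted p = 1.83e-07) and Epha2 fell by 1.62 ± 0.48 (adjusted p = 0.0108), by 0.58 and with no call without morula replicate 2.

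**Figure D3:**
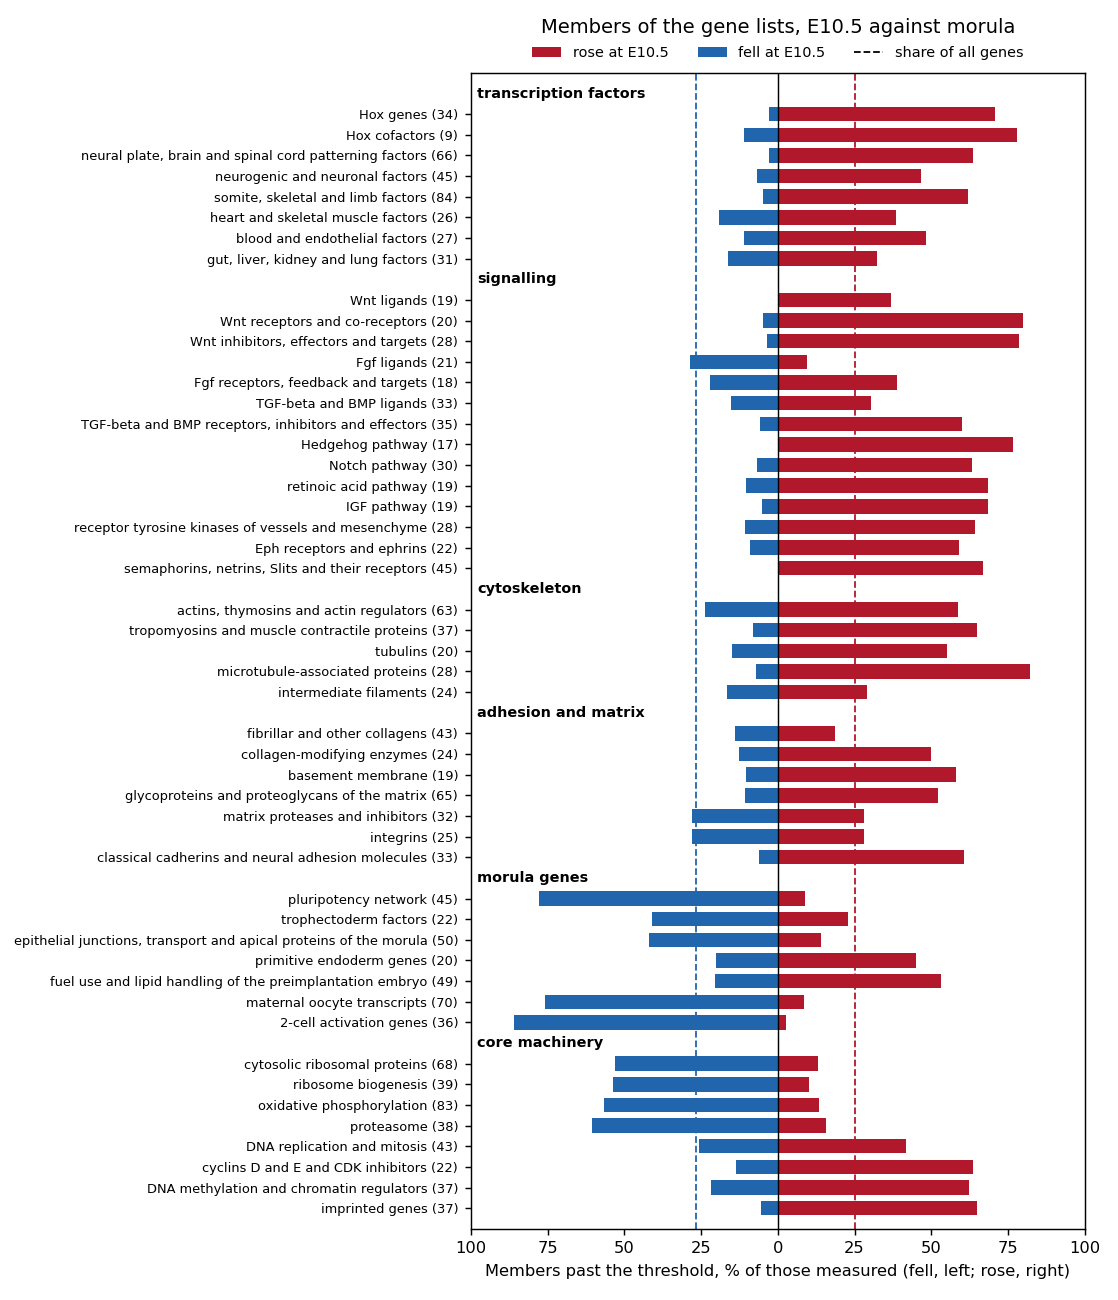
Percent of measured members that rose (red, right) or fell (blue, left) at E10.5 against the morula in each gene list, with the number measured in brackets and dashed lines at the share of all genes (25.2% higher, 26.6% lower). Microtubule-associated proteins, the lists of Wnt receptors and of Wnt inhibitors, effectors and targets, Hox cofactors and Hedgehog genes extend farthest to the right. Pluripotency genes, maternal transcripts and 2-cell activation genes extend farthest to the left.

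Cytoskeletal genes rose widely, and every family also held members that fell. Of 169 genes on 5 lists 99 rose (58.6%), 27 fell and 43 did not pass, with a median difference of 1.51, and all 99 were above the receptor range at E10.5. Of actins, thymosins and actin regulators 37 of 63 measured members rose, 15 fell and 11 did not pass (median difference 1.58). Beside Tmsb4x above, its relative Tmsb10 had 16.18, 15.69 and 16.13 in E10.5 embryos, against 14.42 and 14.41 in morulae, and rose by 1.58 ± 0.33. Both thymosin genes thus rose, Tmsb4x from within the receptor range and Tmsb10 from well above it. Dbn1, the neuronal actin-binding protein drebrin, rose by 8.58 ± 0.29, Acta2, smooth muscle actin, rose by 7.92 ± 0.47, Marcks rose by 4.28 ± 0.28, Msn, the linker protein moesin, rose by 4.10 ± 0.37, and Pfn2, the neuronal profilin, rose by 3.53 ± 0.33 (adjusted p over these genes at most 0.000723). Ezr, the linker ezrin of the apical membrane of epithelia, differed by 0.61 ± 0.30 and did not pass (adjusted p = 0.1). Wasf2, a regulator of branched actin, had 11.28, 11.13 and 10.77 in E10.5 embryos, against 14.53 and 14.48 in morulae, and fell by 3.45 ± 0.39 (adjusted p = 2.24e-06).

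Contractile proteins of muscle rose in 24 of 37 cases and fell in 3. Tnnt2, cardiac troponin T, had 10.04, 9.97 and 10.68 in E10.5 embryos, against 5.37 and 5.76 in morulae, and rose by 4.67 ± 0.29. The ventricular light chain Myl2 rose by 6.40 ± 0.42, the beta and alpha heavy chains Myh7 and Myh6 rose by 4.53 ± 0.31 and 2.95 ± 0.31, the atrial light chain Myl7 rose by 4.39 ± 0.36, and cardiac actin Actc1 rose by 4.15 ± 0.40 (adjusted p at most 9.11e-07). Myh10, a non-muscle heavy chain, was high at both stages and differed by 0.34 ± 0.28 (adjusted p = 0.331). Mylpf, the fast skeletal light chain, had 7.99, 7.47 and 7.81 in E10.5 embryos, against 13.07 and 12.80 in morulae, and fell by 5.18 ± 0.29 (adjusted p = 9.1e-10). The named muscle genes other than Mylpf and Myh10 were higher in all E10.5 embryos than in either morula pool.

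Microtubule genes rose in most of their lists' members. Of tubulins 11 of 20 rose and 3 fell (median 1.02) and of microtubule-associated proteins 23 of 28 rose and 2 fell (median 2.75). The neuronal alpha-tubulin gene Tuba1a had 16.53, 16.42 and 16.56 in E10.5 embryos, against 7.25 and 8.28 in morulae, and rose by 8.74 ± 0.36. Tuba4a had 5.78, 6.31 and 5.96 in E10.5 embryos, against 10.04 and 10.20 in morulae, and fell by 4.10 ± 0.37. The 2 alpha-tubulin genes thus moved in opposite directions. Tuba1b rose by 7.92 ± 0.26, Tubb5 rose by 7.55 ± 0.31, Tubb2b rose by 7.31 ± 0.30 and the neuronal Tubb3 rose by 5.75 ± 0.41; tubulin genes are close in sequence, and shared signal between their probes was not tested. Stmn2, of axon growth cones, rose by 8.38 ± 0.33, Dpysl2 rose by 8.15 ± 0.25, Crmp1 rose by 6.94 ± 0.32, and Dcx, doublecortin of migrating neurons, rose by 5.95 ± 0.39 (adjusted p over these genes at most 1.58e-07). Map7, a microtubule protein of epithelia, fell by 2.73 ± 0.35 (adjusted p = 8.92e-06).

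Of intermediate filament genes 7 of 24 rose and 4 fell (median 0.09), a median whose sign depends on the scale (0.57 with arrays centred on receptors, -0.18 on the upper quartile). Vim had 15.79, 15.81 and 15.65 in E10.5 embryos, against 6.30 and 4.60 in morulae. Krt8, a keratin of simple epithelia such as trophectoderm, had 8.48, 9.31 and 9.31 in E10.5 embryos, against 14.96 and 14.91 in morulae. Its partner Krt18 had 7.61, 8.87 and 8.63 in E10.5 embryos, against 13.57 and 13.54 in morulae. Vim was thus high in every embryo and low in both pools, and the keratin pair the reverse, though all E10.5 keratin signals stayed above the receptor range. Krt8 fell by 5.91 ± 0.30 and Krt18 fell by 5.19 ± 0.35, while the neurofilament genes Nefm and Nefl rose by 8.55 ± 0.31 and 5.47 ± 0.44, Nes, nestin of neural progenitors, rose by 4.45 ± 0.33, and Des, desmin of muscle, rose by 3.10 ± 0.44 (adjusted p at most 2.15e-05). Lmna, which encodes the A-type nuclear lamins, had 5.60, 5.85 and 5.84 in E10.5 embryos, against 13.44 and 13.60 in morulae, and fell by 7.75 ± 0.27 (adjusted p = 5.8e-12).

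Matrix and adhesion genes moved in both directions. Of 241 genes on 7 lists 101 rose (41.9%), 36 fell (14.9%) and 104 did not pass, with a median difference of 0.53. Of collagens 8 of 43 measured members rose, 6 fell and 29 did not pass (median difference 0.11), a median whose sign depends on the scale (0.59 with arrays centred on receptors, -0.16 on the upper quartile). The collagen shares (18.6% and 14.0%) lie below the 25.2% and 26.6% of all genes. Col3a1, a fibrillar collagen of mesenchyme, had 11.40, 11.50 and 12.18 in E10.5 embryos, against 4.53 and 4.67 in morulae, and rose by 7.10 ± 0.33. Col1a2 rose by 4.79 ± 0.43 and Col1a1 rose by 2.29 ± 0.29. Col18a1, of vascular basement membranes, rose by 6.01 ± 0.42 and Col26a1 rose by 5.72 ± 0.45 (adjusted p at most 6.96e-06). Col2a1, of cartilage and notochord, had 6.35, 5.50 and 6.10 in E10.5 embryos, against 5.26 and 5.31 in morulae, and did not pass (adjusted p = 0.0649). Col6a4 fell by 2.60 ± 0.32 (adjusted p = 6e-06).

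Of collagen-modifying genes 12 of 24 rose and 3 fell (median 0.63). Serpinh1, the collagen chaperone HSP47, had 12.57, 12.73 and 13.16 in E10.5 embryos, against 5.31 and 6.11 in morulae, and rose by 7.11 ± 0.32. Pcolce, which enhances processing of procollagen, rose by 4.04 ± 0.42, and Sparc, a collagen-binding matrix protein, rose by 5.51 ± 0.25. The crosslinking enzyme gene Lox rose by 1.17 ± 0.31, with no call without morula replicate 2 (0.75) (adjusted p over these genes at most 0.00489). P4hb, a subunit of prolyl hydroxylase and a general disulfide isomerase, fell by 1.90 ± 0.28 (adjusted p = 2.72e-05).

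Of basement membrane genes 11 of 19 rose and 2 fell (median 1.79), and of glycoproteins and proteoglycans 34 of 65 rose and 7 fell (median 0.98). The laminin chain Lama1 had 10.43, 10.88 and 10.48 in E10.5 embryos, against 4.66 and 4.66 in morulae, and rose by 5.93 ± 0.25. Lama5, another alpha chain, had 4.03, 4.66 and 4.42 in E10.5 embryos, against 8.29 and 8.17 in morulae, and fell by 3.86 ± 0.34. Alpha chains of laminin thus moved in opposite directions, and both differences had one stage within the receptor range. Lamb1 rose by 2.87 ± 0.52 and Lamc1 differed by 0.53 ± 0.29 without passing (adjusted p = 0.145). Fn1, fibronectin, had 13.20, 13.28 and 13.64 in E10.5 embryos, against 7.41 and 6.76 in morulae, and rose by 6.29 ± 0.29. The proteoglycan Vcan of loose mesenchyme and cardiac jelly rose by 7.52 ± 0.24, the glypican Gpc3, a growth inhibitor, rose by 8.52 ± 0.33, the microfibril genes Mfap2 and Fbn2 rose by 8.04 ± 0.41 and 6.72 ± 0.31, Fbln1 rose by 5.51 ± 0.39 and Postn, periostin of valves and mesenchyme, rose by 4.51 ± 0.47 (adjusted p over these genes at most 0.000219). Postn had 9.40, 10.51 and 11.31 in the E10.5 embryos, against 6.37 and 5.42 in morulae, and its embryos lay farther apart than those of Fn1. The cell surface proteoglycan gene Sdc4 fell by 5.81 ± 0.36 (adjusted p = 2.84e-09).

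In the reported fit matrix proteases and integrins divided evenly, near the shares of all genes, but the split depends on the scale. With arrays centred on receptors 12 proteases or inhibitors rose and 2 fell, and 10 integrins rose and 4 fell. On the upper quartile 9 proteases or inhibitors rose and 12 fell, and 5 integrins rose and 9 fell. Of proteases and inhibitors 9 of 32 rose and 9 fell (median -0.12), a median whose sign depends on the scale (0.36 with arrays centred on receptors, -0.39 on the upper quartile). All 9 rises stood above the receptor range at E10.5, whereas 4 of the 9 falls started from above it. Of integrins 7 of 25 rose and 7 fell (median -0.14), a median whose sign depends on the scale (0.34 with arrays centred on receptors, -0.41 on the upper quartile). The gelatinase gene Mmp2 rose by 5.12 ± 0.25, its activator Mmp14 rose by 4.54 ± 0.37, the inhibitor Timp2 rose by 5.38 ± 0.37 and Adamts1, which cleaves versican, rose by 5.10 ± 0.55, while the macrophage elastase gene Mmp12 fell by 4.29 ± 0.35 (adjusted p at most 1.13e-06). The integrin alpha subunit genes Itgav, Itga9 and Itga4 rose by 3.89 ± 0.32, 3.06 ± 0.24 and 2.49 ± 0.33, and the common partner Itgb1 rose by 1.91 ± 0.25. The laminin receptor subunits Itga7 and Itga6 fell, with differences of -3.55 ± 0.30 and -1.56 ± 0.31 (adjusted p over these integrins at most 0.000528).

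Cadherin genes moved in opposite directions by family member. Of cadherins and neural adhesion molecules 20 of 33 measured members rose, 2 fell and 11 did not pass (median difference 1.56). Cdh2, N-cadherin of neural tube, somites and heart, had 13.81, 13.49 and 13.57 in E10.5 embryos, against 6.23 and 6.54 in morulae. Cdh1, E-cadherin, which compacts the morula, had 8.75, 9.67 and 9.28 in E10.5 embryos, against 14.33 and 14.71 in morulae. The groups did not overlap for either, and they lay in opposite order. Cdh2 rose by 7.24 ± 0.28 and Cdh1 fell by 5.29 ± 0.29, and the epithelial adhesion gene Epcam fell by 3.09 ± 0.32. Cdh5, of endothelium, rose by 7.05 ± 0.44, Ncam1, of nerve, rose by 6.64 ± 0.36, Pcdh18 rose by 7.14 ± 0.33 and the mesenchymal Cdh11 rose by 3.42 ± 0.34 (adjusted p over these genes at most 6.48e-07). Cdh1 signals at E10.5 were still well above the receptor range in each embryo.

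**Figure D4:**
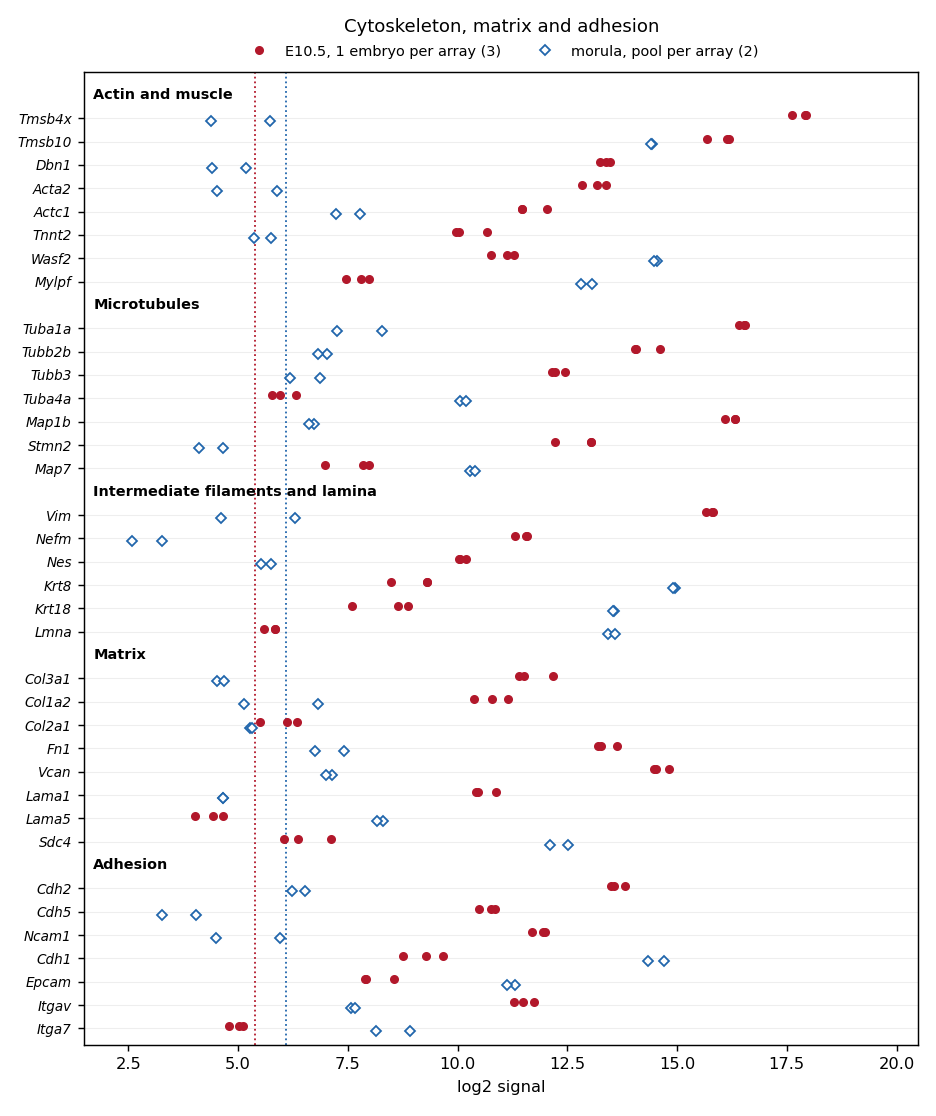
Log2 signal (horizontal axis) of named cytoskeleton, matrix and adhesion genes in each E10.5 embryo (filled circles, 3) and each morula pool (open diamonds, 2), with dotted lines at the top of the receptor range of each stage. Vim, Tuba1a, Fn1 and Cdh2 are higher in every embryo, and Krt8, Krt18, Lmna, Lama5 and Cdh1 higher in both morula pools.

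The pluripotency network and the 2-cell activation genes had the lowest medians of the morula lists. The share that fell was highest for the 2-cell activation genes (86.1%), described below, against 77.8% of the pluripotency network. Of 283 genes on the 7 lists of morula genes 158 fell (55.8%), 56 rose (19.8%) and 69 did not pass, with a median difference of -1.26. Of the 158, 130 fell from above the receptor range (19.7% of all genes did). Of the pluripotency network 4 of 45 measured members rose, 35 fell and 6 did not pass (median difference -3.17). Nanog, the homeodomain factor of the naive epiblast, had 4.83, 5.65 and 5.18 in E10.5 embryos, against 13.37 and 14.06 in morulae. Klf5, needed for the inner cell mass and trophectoderm, had 5.31, 5.97 and 5.84 in E10.5 embryos, against 14.12 and 14.33 in morulae. The E10.5 signals of both genes lay in or just above the receptor range. Nanog fell by 8.49 ± 0.37 and Klf5 fell by 8.52 ± 0.34, and Spic, an Ets factor, fell by 10.44 ± 0.31. Nr5a2, a nuclear receptor of the early embryo, had 6.17, 3.60 and 5.18 in E10.5 embryos, against 13.67 and 13.68 in morulae, and fell by 8.69 ± 0.51 (adjusted p over these genes at most 1.44e-09). The 3 embryos of Nr5a2 straddled the top of the receptor range.

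Fbxo15, an Oct4 target, fell by 13.19 ± 0.31 and Dppa5a, an RNA-binding protein gene, fell by 13.05 ± 0.30. Dnmt3l, a cofactor of de novo DNA methylation, fell by 7.90 ± 0.33, Tfcp2l1 fell by 4.04 ± 0.29, Zfp42, the marker REX1, fell by 3.77 ± 0.26, Esrrb fell by 3.17 ± 0.33 and Klf4 fell by 3.11 ± 0.41. Sall4, which stays in use in later progenitors, had 10.98, 11.05 and 10.49 in E10.5 embryos, against 13.33 and 13.37 in morulae, and fell by 2.51 ± 0.32. The let-7 inhibitor Lin28a had 10.53, 10.86 and 10.26 in E10.5 embryos, against 11.84 and 12.91 in morulae, and fell by 1.83 ± 0.34 (adjusted p over these genes at most 0.000316). Both remained far above the receptor range at E10.5. Members that rose included Sox2, described above, and, named after their values were seen, Lin28b (2.95 ± 0.35) and Sall1 (0.78 ± 0.30), with adjusted p at most 0.0407; the call of Sall1 was lost when any single array was left out.

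The trophectoderm programme fell in part. Of its factors 5 of 22 measured members rose, 9 fell and 8 did not pass (median difference -0.46), a median whose sign depends on the scale (0.02 with arrays centred on receptors, -0.73 on the upper quartile). Cdx2, the homeobox factor that specifies trophectoderm and later the caudal body, had 4.70, 5.61 and 5.45 in E10.5 embryos, against 10.65 and 10.39 in morulae, and fell by 5.27 ± 0.37. Tfap2c fell by 4.44 ± 0.32, Elf3 fell by 5.94 ± 0.37, and Tead4, which switches Cdx2 on in outer cells, fell by 3.57 ± 0.32 (adjusted p at most 1.47e-07). Arid3a, on the same list, rose by 1.86 ± 0.32 (adjusted p = 0.000142), and the largest rise on the list was 5.32.

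Of epithelial genes of the morula 7 of 50 rose and 21 fell (median -0.62), and 17 rose and 20 fell with arrays centred on receptors (median -0.13). Cldn4, a tight junction claudin, had 6.59, 6.81 and 6.89 in E10.5 embryos, against 13.99 and 14.30 in morulae, and fell by 7.38 ± 0.41. Cldn7 had 4.81, 5.14 and 4.61 in E10.5 embryos, against 14.65 and 14.76 in morulae, and fell by 9.85 ± 0.33. Aqp3, a water and glycerol channel, had 6.29, 6.09 and 5.70 in E10.5 embryos, against 13.43 and 13.46 in morulae, and fell by 7.42 ± 0.28. The 3 genes were high in both pools and low in every embryo, Cldn4 and Aqp3 above and Cldn7 within the receptor range. Aqp9, another glycerol channel, fell by 10.85 ± 0.27, Sfn, the epithelial 14-3-3 protein stratifin, fell by 8.96 ± 0.35, and the endocytic receptors Cubn and Lrp2 fell, with differences of -5.51 ± 0.45 and -3.04 ± 0.37 (adjusted p over these genes at most 4.09e-06). Atp1b1, a sodium pump subunit that fills the blastocyst cavity, fell by 1.79 ± 0.37 (adjusted p = 0.000754). Cldn5, of endothelium, rose by 2.09 ± 0.42 (adjusted p = 0.000628), and Cldn6 differed by 0.64 ± 0.31 and did not pass (0.0959).

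Fuel genes moved both ways: of them 26 of 49 measured members rose, 10 fell and 13 did not pass (median difference 0.86). Fbp2, a gluconeogenic phosphatase, had 4.16, 3.04 and 3.98 in E10.5 embryos, against 15.64 and 15.31 in morulae, and fell by 11.75 ± 0.38. Fabp3, a fatty acid carrier, fell by 7.93 ± 0.38, and Vnn1, which makes cysteamine from pantetheine, fell by 8.95 ± 0.35. Among members of the same list that rose, the lactate dehydrogenase gene Ldha had 17.25, 17.13 and 17.14 in E10.5 embryos, against 8.68 and 8.74 in morulae, and rose by 8.46 ± 0.33. Pgk1 rose by 8.99 ± 0.38, Ldhb rose by 4.53 ± 0.35, Fads2, a fatty acid desaturase, rose by 8.50 ± 0.34 and the glucose transporter gene Slc2a1 rose by 2.69 ± 0.26 (adjusted p over these genes at most 4.41e-07). Slc2a3 rose by 1.38 ± 0.46 (adjusted p = 0.0199), with no call without morula replicate 1 (1.10) or E10.5 replicate 2 (1.04). Of primitive endoderm genes 9 of 20 rose and 4 fell (median 0.57).

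Transcripts of the oocyte and of the 2-cell embryo fell in most members. Of maternal oocyte transcripts 6 of 70 rose and 53 fell (median -1.70), and of 2-cell activation genes 1 of 36 rose and 31 fell (median -3.11). Of these falls, 35 of the 53 and 30 of the 31 started from above the receptor range. The other falls had a morula mean within it and can follow the background. With arrays centred on receptors 41 maternal transcripts fell and 7 rose, and of the 2-cell genes 30 fell and 1 rose. Khdc3, of the subcortical maternal complex, had 4.11, 3.70 and 3.44 in E10.5 embryos, against 14.92 and 15.25 in morulae, and fell by 11.34 ± 0.28. Zp3, a protein of the egg coat, had 4.22, 4.01 and 4.18 in E10.5 embryos, against 7.17 and 8.50 in morulae, and fell by 3.70 ± 0.33. Both were within the receptor range at E10.5. Obox6 fell by 8.08 ± 0.25, Nlrp5 fell by 2.31 ± 0.34, and the histone chaperone Npm2 fell by 1.95 ± 0.24 (adjusted p over these genes at most 3.11e-05). Of the 2-cell genes, Timd2 had 5.39, 5.66 and 5.21 in E10.5 embryos, against 18.45 and 18.46 in morulae, and fell by 13.04 ± 0.30. Alppl2, an alkaline phosphatase gene, fell by 12.36 ± 0.47, Guca1a fell by 11.07 ± 0.25, Tdpoz2 fell by 11.31 ± 0.31, and the Prame-like genes Pramel6 and Pramel7 fell, with differences of -8.19 ± 0.34 and -7.55 ± 0.40 (adjusted p at most 4.13e-10); these families hold near-identical copies whose signals may mix. The chromatin gene Kdm5b was the one that rose (1.09 ± 0.32, adjusted p = 0.00996), with no call without morula replicate 1 (0.81). The 15 largest falls also held Rpl39l, a ribosomal protein paralog (-12.71 ± 0.26), the autophagy receptor gene Calcoco2 (-12.57 ± 0.31), and Plac9b (-10.91 ± 0.32), which has a near copy (adjusted p at most 1.44e-12).

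Profiles over all 5 stages place these signals in time. In order from the pronuclear and 2-cell stages over the morula to E10.5 and E16.5, Pou5f1 averaged 14.79, 14.86, 16.43, 3.59 and 3.68. Nanog averaged 5.62, 5.50, 13.71, 5.22 and 5.11 over the same stages, so its signal stood clear of the receptor range in the morula alone. Fbp2 averaged 6.49, 4.91, 15.47, 3.73 and 8.52, with another, lower signal at E16.5. Some genes that rose had been high before the morula. Cdh2 averaged 10.42, 8.74, 6.38, 13.62 and 10.93, and Mest 16.80, 13.79, 6.50, 19.43 and 18.46. Hbb-y was at or below 4.26 in all 3 early stage means, then 19.41 at E10.5 and 8.84 at E16.5. These profiles are given as values, with no test beyond E10.5 against morula.

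**Figure D5:**
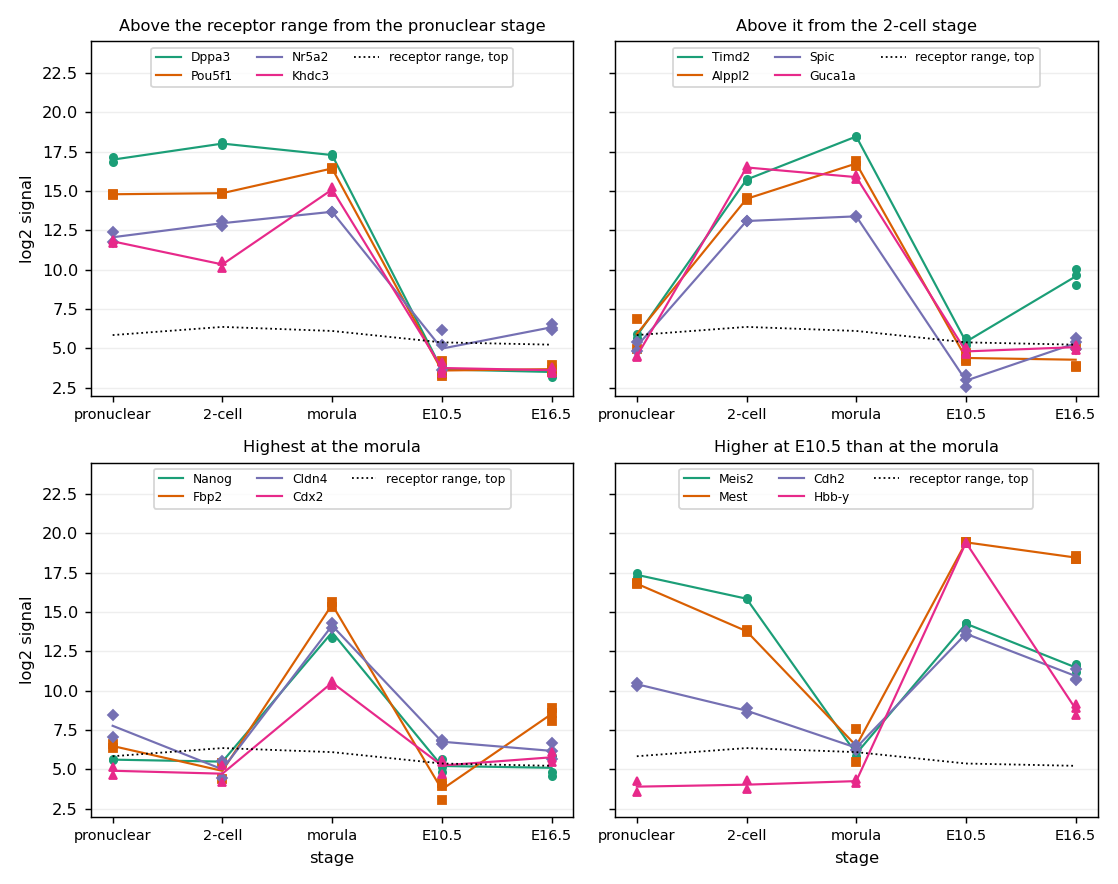
Log2 signal (vertical axis) of named genes over the 5 stages in time order, with lines through stage means, points for single arrays and the top of the receptor range dotted. Nanog, Fbp2, Cldn4 and Cdx2 peak at the morula, while Meis2, Mest and Cdh2 are lower there than before and after it.

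Machinery of the cell, grouped here with cell cycle, chromatin and imprinted genes, also shifted. The 8 lists of this group hold 366 genes and include the cell cycle, chromatin and imprinted lists described below. Of these genes 108 rose (29.5%) and 151 fell (41.3%), with a median difference of -0.37. Of cytosolic ribosomal proteins 9 of 68 rose and 36 fell (median -0.83), and of ribosome biogenesis genes 4 of 39 rose and 21 fell (median -0.70). Of oxidative phosphorylation genes 11 of 83 rose and 47 fell (median -0.96), and of proteasome genes 6 of 38 rose and 23 fell (median -1.20). These 4 medians were below 0 under each of the other scalings tried. Uqcr10, of respiratory complex III, had 9.74, 10.13 and 9.87 in E10.5 embryos, against 16.63 and 16.94 in morulae, and fell by 6.87 ± 0.27. Atp5g2, a subunit c gene of ATP synthase, had 16.36, 16.53 and 16.35 in E10.5 embryos, against 9.78 and 10.87 in morulae, and rose by 6.09 ± 0.35. Members of 1 list thus moved both ways. Cyc1 fell by 6.43 ± 0.40, Rps27l fell by 5.53 ± 0.26, Rpl27 fell by 5.17 ± 0.56, the nucleolar factor Bop1 fell by 4.92 ± 0.27, the RNA polymerase I subunit Polr1b fell by 5.35 ± 0.29 and the proteasome subunit Psmb3 fell by 4.85 ± 0.28, while Rpl21 rose by 3.21 ± 0.25 (adjusted p over these genes at most 1.26e-06).

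Cell cycle control changed its components. Of cyclins D and E and CDK inhibitors 14 of 22 rose and 3 fell (median 1.80), and of replication and mitosis genes 18 of 43 rose and 11 fell (median 0.68). Ccnd2, cyclin D2, had 14.62, 14.25 and 14.44 in E10.5 embryos, against 4.63 and 3.40 in morulae. Ccne1, cyclin E1, had 13.30, 13.56 and 13.03 in E10.5 embryos, against 16.11 and 16.08 in morulae, and fell by 2.79 ± 0.25. Cdkn1a, the inhibitor p21, had 8.32, 8.28 and 7.42 in E10.5 embryos, against 14.42 and 14.45 in morulae, and fell by 6.43 ± 0.29. The D-type cyclin was thus higher in the embryo, and the E-type cyclin and p21 were higher in the morula. The E10.5 signals of Ccne1 and Cdkn1a stayed above the receptor range, and Ccne1 was bright at both stages. The inhibitors Cdkn1b and Cdkn1c rose by 5.09 ± 0.53 and 2.69 ± 0.27, Mycn rose by 3.38 ± 0.33 and Myc rose by 3.27 ± 0.37 (adjusted p over these genes at most 2.35e-06).

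Chromatin and imprinted genes rose in most members. Of DNA methylation and chromatin regulators 23 of 37 rose and 8 fell (median 1.18), and of imprinted genes 24 of 37 rose and 2 fell (median 2.56). The maintenance methyltransferase gene Dnmt1 had 12.55, 13.13 and 12.67 in E10.5 embryos, against 8.56 and 9.18 in morulae, and rose by 3.91 ± 0.27. Tet1, which oxidises methylcytosine, fell by 1.98 ± 0.30, and Ehmt1, of the H3K9 methyltransferase complex, rose by 6.30 ± 0.23. Nnat, expressed in neural tissue, had 14.78, 15.01 and 14.81 in E10.5 embryos, against 5.26 and 5.74 in morulae, and rose by 9.36 ± 0.38. Peg10 rose by 7.66 ± 0.25 and Ndn rose by 7.06 ± 0.38 (adjusted p over these genes at most 3.94e-05). Phlda2, a growth inhibitor of the placenta, fell by 2.05 ± 0.29 (adjusted p = 2.06e-05). The imprinted genes named so far, other than Phlda2, were higher in each embryo than in either pool. Snrpn, on a probe set with several symbols and described at the end, was lower in each embryo than in either pool.

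Markers of other cells were read beside these results. Of erythroid genes 16 of 21 rose and 0 fell (median 2.44), and the list's mean signal lay at 10.22 to 10.54 over the E10.5 arrays and 6.45 to 6.51 over the morulae. Of yolk sac and fetal liver genes 11 of 20 rose and 3 fell (median 0.99), with mean signals of 6.20 to 6.35 at E10.5 and 5.61 to 5.83 in morulae. Afp, alpha-fetoprotein of yolk sac and liver, had 10.75, 11.35 and 11.27 in E10.5 embryos, against 5.67 and 6.24 in morulae, and rose by 5.17 ± 0.30 (adjusted p = 1.25e-09). Whether yolk sac was left on the dissected embryos was not tested, and Afp in liver bud and in yolk sac cannot be told apart here. Of placenta and decidua genes 1 of 24 rose and 7 fell (median -0.49), with mean signals of 4.19 to 4.41 at E10.5 and 4.79 to 5.08 in morulae. Of these 7, 3 fell from above the receptor range, and with arrays centred on receptors, whose own median differed by -0.42, 2 rose and 4 fell (median -0.0097). The trophoblast markers Prl3d1 and Tpbpa were within the receptor range at both stages. Prl3b1, a placental lactogen, had 6.66, 6.28 and 6.06 in E10.5 embryos, against 8.54 and 8.30 in morulae, and fell by 2.09 ± 0.27, and Syna, the fusion protein syncytin A, had 4.40, 4.72 and 4.48 in E10.5 embryos, against 6.57 and 6.98 in morulae, and fell by 2.24 ± 0.29 (adjusted p at most 8.97e-06). Both lay above the receptor range in each morula pool, and their part in the other results was not tested. Of leukocyte and platelet genes 3 of 29 rose and 5 fell (median -0.05), a median whose sign depends on the scale (0.43 with arrays centred on receptors, -0.32 on the upper quartile), with mean signals of 5.25 to 5.50 at E10.5 and 5.28 to 5.29 in morulae. Of cumulus and granulosa genes, the somatic cells that surround an egg, 4 of 21 rose and 5 fell (median -0.30), a median whose sign depends on the scale (0.18 with arrays centred on receptors, -0.56 on the upper quartile), with means of 5.69 to 5.87 at E10.5 and 6.33 to 6.40 in morulae. These shares (19.0% and 23.8%) lie near the 25.2% and 26.6% of all genes. The members with the largest changes were Nr5a2, also a factor of early embryos, which fell by 8.69 ± 0.51, Hsd3b1, which fell by 4.62 ± 0.28, and Amhr2, which fell by 4.48 ± 0.31, while Kitl, the KIT ligand, rose by 4.49 ± 0.39 (adjusted p at most 1.09e-07), and the part of such cells in the morula pools was not tested.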

How the data were processed

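The values used are log2 signals, 1 per gene-level probe set, that the authors deposited for Clariom S Mouse arrays. Per the file headers they had been normalised with SST-RMA (signal space transformation, then robust multi-array averaging) and annotated with release na36 on mm10. Per the submitters' processing notes the software was the Transcriptome Analysis Console (version not given in the sources used here). RNA was extracted with QIAzol and labelled from 2 ng with a kit for small inputs, per the labels' protocols. For arrays no counting depth applies; the number of arrays limits the precision. Array medians lay between 6.19 and 6.62.

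The 22206 probe sets comprised 21367 with a single symbol, which were tested, 836 with more than 1 and 3 without any. A gene with several such probe sets was represented by the brightest (211 left out), giving 21156 genes. Gene positions were read from the authors' annotation columns. Promoters came from RefSeq (GRCm38.p6), in which Hbb-y, Hba-x, Pou5f1 and Nanog were found, and the first entry of each gene was used.

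The contrast E10.5 minus morula was tested (two-sided) with limma 3.58.1, R 4.3.3, using lmFit and eBayes. The 12 arrays shared 1 model with 5 stage means, since 3 and 2 arrays alone give little information on spread. P-values were adjusted by Benjamini-Hochberg over the 21156 genes, with a threshold of 0.05. On simulated data with these arrays' spread, 68 of 100 genes changed by 2 log2 units and 5 of 100 changed by 1 unit were recovered, with 3 false calls among 20956 unchanged genes. Only 200 genes were changed there, whereas 51.9% of genes were called in the data. The adjusted threshold was therefore stricter in the simulation, and its recovery and false calls do not give rates for the real contrast. Genes on 55 lists were counted without a set test. Named were the 15 largest rises and falls without overlap between arrays (no provisional names or receptors), defining members of each list, and from each list the 3 largest changes in its main direction and 1 in the other. Some genes that the rule names are not reported here. Members, lists, marks and rule were chosen with earlier results of these data known. Alternatives were another variance model, array weights, the replicate number as a block, other scalings (quantile, cyclic loess, centring on the upper quartile or on receptors), removal of dim genes (15955 remained), probe set means, a threshold of 0.01, a minimum change of 1 unit, the 5 arrays alone, and leaving out each array. Probe sets with several symbols were added after seeing the data. Plots used matplotlib 3.10.9 under Python 3.11.15.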

Additional observations from a re-analysis of the deposited data

Results flagged for a closer look

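Some defining genes of the lists lie on probe sets that carry several symbols and so entered none of the counts above. They were examined after seeing the data, in the same fit, because a signal there is unused: of 836 such probe sets, 196 were higher and 258 lower at E10.5. 9 defining genes lay on them and passed by limma's adjusted p, 6 higher and 3 lower at E10.5. Ctnnb1, beta-catenin, differed by 6.33, Igf2bp1, an RNA-binding protein of fetal tissues, by 5.18, Ccnd1, cyclin D1, by 5.16, Pdgfra, a receptor of mesenchyme, by 4.29, Loxl2, a collagen crosslinking enzyme, by 2.66 and Nrp1, a receptor of semaphorins and VEGF, by 1.45 log2 units. Gata3, a factor of trophectoderm and of sympathetic neurons, differed by -4.30, Egfl7, of endothelium, by -2.95 and the imprinted gene Snrpn by -0.93. Which symbol of a probe set gives the signal was not tested.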

How the results depend on the processing

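Counts of calls held within 1.5 times of the reported ones under nearly all of 17 alternatives. Lower genes numbered 3387 with arrays centred on the receptor median (5638 reported), and the falling members numbered 12 of the transcription factors (23 reported), 16 of the signalling genes (29) and 18 of the matrix and adhesion genes (36) in that setting, while the threshold of 0.01 left 14 falling transcription factors. Leaving out each array gave 4716 to 4956 higher and 4674 to 4981 lower genes; rising and falling members ranged over 149 to 161 and 16 to 18 for transcription factors, 188 to 200 and 19 to 25 for signalling, 94 to 98 and 22 to 25 for cytoskeleton, 89 to 95 and 26 to 34 for matrix and adhesion, and 50 to 54 and 148 to 152 for morula genes. Falling signalling genes were fewest, at 19, without morula replicate 1. With the replicate number as a block 5066 genes were higher and 5133 lower. Deviations of same-numbered arrays correlated at -0.0169 (number 1) and 0.00783 (number 2). Deviations of the 2 morula arrays mirror each other, so these correlations cannot decide whether arrays are paired. By the sample titles the arrays share only a number, which gives no basis for pairing them. Of 284 named genes that passed, 271 kept their call and direction under each alternative that tested them, and of 19 that did not pass, 16 did so under at least 1. With arrays centred on receptors Hoxb13 (-0.59), Pknox1 (-0.95), Etv5 (-0.60), Lrp5 (-0.20), Ins1 (-0.63) and Epha2 (-1.14) lost their calls. Leaving out single arrays, Lrp5 ranged over -0.78 to -0.58 and Sall1 over 0.73 to 0.83, with no call in either case. Among genes that did not pass, Nkx2-5 was at -0.22 with upper-quartile centring and between -0.093 (without E10.5 replicate 1) and 0.22 with single arrays left out, and Msx1 between -0.034 (without morula replicate 1) and 0.96; the cause was not tested. Medians of the Fgf ligands, TGF-beta and BMP ligands, collagens, integrins, matrix proteases, intermediate filaments, trophectoderm factors, gut factors, leukocyte and cumulus lists changed sign with the scaling. Differences whose lower stage lies within the receptor range are bounded by background, which limits what can be said of dark genes.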
